A study of Homo sapiens with 24 samples.

Results

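The gene set described here comprises 36 genes of the integrated stress response in K562 cells, an established human line from a leukemia with erythroid features. Members were chosen by symbol from the 27311 symbols of the count table, with earlier results of these data known. They are 8 regulators around the transcription factor ATF4, 3 stress effectors, 7 enzymes of asparagine, serine and folate-linked carbon metabolism, and 18 cytosolic aminoacyl-tRNA synthetases under their older symbols (AARS for alanine, LARS for leucine). All 36 symbols were in the table. The filter on low counts was passed by 35 of them and, over all symbols, by 6738 genes. CHAC1, an enzyme that degrades glutathione, did not pass it, with 1 to 21 counts per library and 163 in all.

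In the integrated stress response, kinases that sense amino acid shortage, unfolded proteins, double-stranded RNA or low heme phosphorylate the translation factor eIF2alpha. General translation then drops while ATF4 protein is made from its mRNA more efficiently, and ATF4 raises the transcription of genes for amino acid synthesis, amino acid transport and tRNA charging. Erythroid cells carry the heme-sensing kinase HRI, encoded by EIF2AK1, which couples globin translation to heme supply. GATA1 is the erythroid transcription factor that drives globin and heme synthesis genes. Because ATF4 is controlled largely at translation, its mRNA level is a poor measure of its activity, and only mRNA was measured here.

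The study asked what happens to the transcriptome when GATA1 is reduced by RNA interference. Per the labels, K562 cells received siGATA1-1 at 25 nM, siGATA1-2 at 6.25 nM, or a non-targeting siRNA, siNC-1 or siNC-2, at either dose, and were grown for 48 hours. Each of these 6 groups had 4 libraries, 24 in all, made from the 3' ends of polyadenylated RNA. Each GATA1 siRNA was used at a single dose, so its sequence and its dose cannot be told apart, and it was compared with the 8 control libraries of its own dose. A single cell line was used, and the comparison is between transfected populations. In such bulk RNA, fewer cells of a type and less RNA per cell cannot be told apart. Levels are given as CPM (the count of a gene scaled to a common total over the tested genes, with TMM factors). A gene was called at an adjusted p (edgeR quasi-likelihood test, Benjamini-Hochberg over the 6738 genes) under 0.05, and "rose" and "fell" are used for called genes only.

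Library totals ran from 88290 to 473098 counts, with 102225 to 226888 in the siGATA1-2 group and 183971 to 378439 in the siGATA1-1 group. GATA1 itself lay between 242 and 308 CPM with siGATA1-1 against 389 to 717 CPM in the controls at 25 nM. With siGATA1-2 it lay between 165 and 333 CPM against 478 to 630 CPM in the controls at 6.25 nM. The groups did not overlap at either dose, and GATA1 fell in both comparisons (log2 fold changes of -0.97, SE 0.16, and -1.19, SE 0.18). All 10 markers of K562 erythroid cells passed the filter, and 9 of them fell in the mean of both siRNA effects. Their summed level was 13377 to 17710 CPM with siGATA1-1 and 13258 to 19402 CPM with siGATA1-2, against 19573 to 24975 CPM in the controls at 25 nM and 25723 to 31069 CPM in those at 6.25 nM. Of 5 myeloid markers, 3 passed the filter and those 3 rose in the mean effect, with 2 called for each siRNA alone. The sum over all 5 was 630 to 967 CPM with siGATA1-1, overlapping with 464 to 678 CPM in its controls. With siGATA1-2 that sum was 657 to 1203 CPM, against 357 to 597 CPM in its controls. Of 5 lymphoid markers 1 was tested and not called, and of 6 epithelial and fibroblast markers 3 were tested and 1 fell. These shifts accompanied every knockdown result below, and their part in those results was not tested.

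ATF4 acts on many of these genes through a composite site that joins part of a C/EBP site to part of an ATF site, and TGATGCAA is its classical form. The letters TGATGNAA were searched on both strands of the RefSeq promoter table (GRCh38.p14, 250 bases before to 50 bases after each gene start), where 29 of the 36 members had an entry, with 44 promoters between them. The match was present in 11 of the 44 member promoters (25.0%) against 1270 of all 35116 promoters (3.62%), and in 7 of the 19 synthetase promoters (36.8%). PSPH, SHMT2, ALDH1L2, DARS, LARS, VARS and YARS were not matched in the table. Members were listed by symbol and not by this sequence. They were listed as genes related to ATF4, which acts through such sites, so the share among them is not independent of the choice. The 11 matches are printed below. Each line gives 30 bases, 5' to 3' on the strand that reads TGATGNAA, with the match in capitals.

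ATF3: aaaggtcaggaTGATGGAAggctgtcatat
CEBPG: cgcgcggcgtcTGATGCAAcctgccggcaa
CHAC1: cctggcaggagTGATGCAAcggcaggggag
ASNS: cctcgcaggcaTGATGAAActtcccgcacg
AARS: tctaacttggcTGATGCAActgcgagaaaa
CARS: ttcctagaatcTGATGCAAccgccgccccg
GARS: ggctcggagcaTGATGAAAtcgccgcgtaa
IARS: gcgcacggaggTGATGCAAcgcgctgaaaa
MARS: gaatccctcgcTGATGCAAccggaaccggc
NARS: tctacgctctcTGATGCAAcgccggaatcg
TARS: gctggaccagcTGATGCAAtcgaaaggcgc

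Of these matches, 8 read TGATGCAA, 2 read TGATGAAA (ASNS and GARS) and 1 reads TGATGGAA (ATF3). On the plus strand of GRCh38.p14 the windows of ATF3 (chr1:212565205-212565234), CEBPG (chr19:33374060-33374089), AARS (chr16:70289675-70289704), CARS (chr11:3057407-3057436) and IARS (chr9:92293692-92293721) are shown. On the minus strand those of CHAC1 (chr15:40953251-40953280), ASNS (chr7:97872458-97872487), GARS (chr7:30594834-30594863), MARS (chr12:57488053-57488082), NARS (chr18:57621804-57621833) and TARS (chr5:33440956-33440985) are shown. Most synthetase matches lay near the gene start. A match within 40 bases of the start was found in 6 of the 19 synthetase promoters (31.6%) and in 305 of all promoters (0.869%), while the AARS match began 187 bases before it. The 40-base limit was not part of the planned search, so these shares are a description. Just outside it, the CEBPG match began 42 bases before the start. The promoters of ATF5 and TRIB3 in the table held no match, which says only that these letters are not in those windows.

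**Figure D1:**
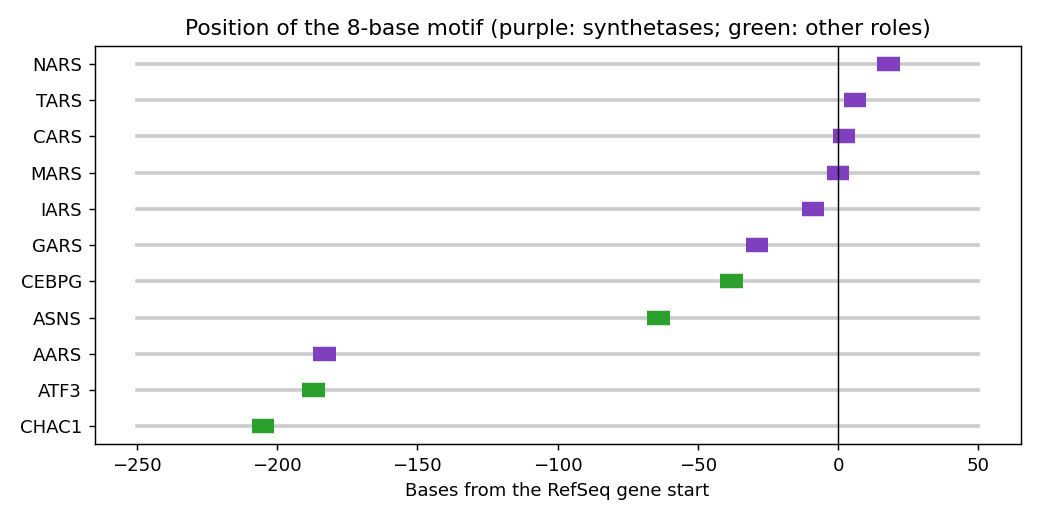
Position of the TGATGNAA match in the 11 member promoters that hold it. The x axis is the distance in bases from the RefSeq gene start, grey lines are the promoter windows, purple bars are matches in synthetase genes and green bars matches in genes of other roles; 6 of the 7 purple bars lie within 40 bases of the start.

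Averaged over both GATA1 siRNAs, most of the gene set was slightly lower than in the dose-matched controls, and few members were called. ATF5 and LARS fell, none rose, and 33 of the 35 tested members were not called. Over all 6738 genes, 4.48% were called in this comparison, 1.88% as lower and 2.6% as higher. The log2 fold change was below 0 for 32 of the 35 tested members, against 50.3% of all genes, with a median of -0.23 against -0.003 for all genes. An unadjusted p under 0.05 with a lower level was reached by 9 of the 35, against 8.4% of all genes, and none reached it with a higher level. The range ran from -0.82 for PSPH to 0.15 for DDIT3. The members were chosen with earlier results of these data known. They share libraries and normalization and are not independent of each other, so these counts describe the set and carry no test.

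**Figure D2:**
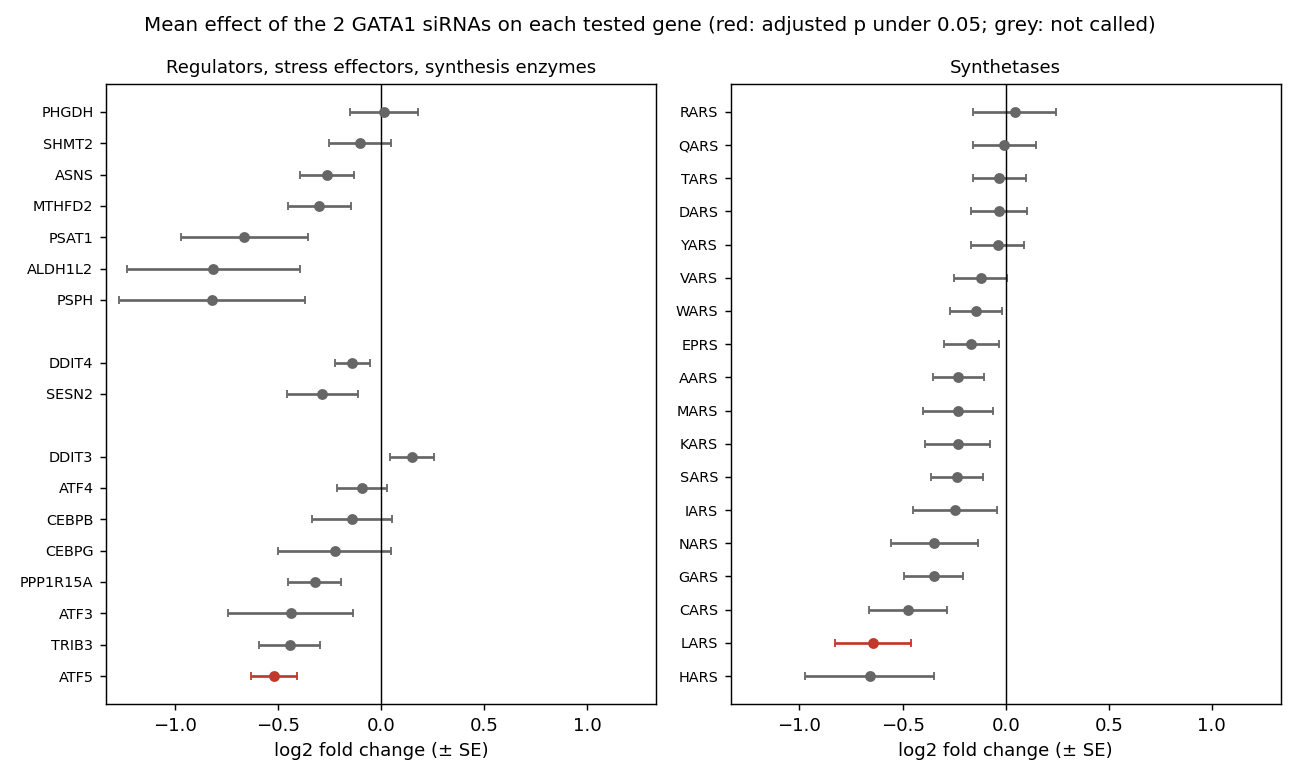
Mean effect of both GATA1 siRNAs on each tested member, grouped by role. Points are log2 fold changes against the controls of the same dose and bars their SE (8 GATA1 siRNA and 16 control libraries); red points passed an adjusted p under 0.05. ATF5 and LARS are red, and 32 of the 35 points lie below 0.

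Among the 8 regulators, 1 fell in the mean effect (ATF5), 7 were not called, and 7 of 8 log2 fold changes were below 0 with a median of -0.27. With siGATA1-1 alone 3 of 8 were below 0 (median 0.04), and with siGATA1-2 alone 7 of 8 (median -0.42). ATF5 is a basic leucine zipper factor related to ATF4 whose mRNA is also translated more efficiently under stress. With siGATA1-1 its level was 708, 610, 513 and 672 CPM. The siNC-1 libraries at the same dose gave 1249, 985, 932 and 814 CPM, and the siNC-2 libraries gave 1269, 643, 672 and 652 CPM. All 4 siGATA1-1 libraries lay below the 4 siNC-1 libraries, but they overlapped with 3 of the 4 siNC-2 libraries.

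With siGATA1-2, ATF5 was at 417, 300, 344 and 471 CPM. At that dose the siNC-1 libraries gave 650, 502, 542 and 428 CPM and the siNC-2 libraries 631, 718, 549 and 531 CPM. Only the lowest siNC-1 library reached into the range of the siGATA1-2 group. The group means were 626 ± 85.5 CPM (SD, n = 4) for siGATA1-1 against 902 ± 255 CPM (SD, n = 8), and 383 ± 76.0 CPM (SD, n = 4) for siGATA1-2 against 569 ± 92.2 CPM (SD, n = 8).

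ATF5 was listed with its call from earlier results of these data known, so its values here are a description and not independent evidence. The mean effect on ATF5 was a log2 fold change of -0.52 (SE 0.11, 95% interval -0.74 to -0.30, adjusted p = 6.64e-04, edgeR). Per siRNA it was -0.48 (SE 0.15, adjusted p = 0.155) for siGATA1-1, which was not called, and -0.56 (SE 0.17, adjusted p = 0.0387) for siGATA1-2. The difference between these effects was -0.08 (95% interval -0.51 to 0.35). The siGATA1-1 effect was called with siNC-1 as the only control (-0.66, adjusted p = 0.0394). The mean effect stayed called in every alternative run. Pooling all 16 controls leaves its contrast as it was, so that setting is no check of it. The siGATA1-2 call was lost in 12 of 34, among them the fits without siGATA1-2 replicate 1, 2 or 3, without siNC-1 replicate 5 or 7 or siNC-2 replicate 5 or 6 at 6.25 nM, and without siNC-1 replicate 3 at 25 nM (adjusted p from 0.0505 to 0.143). ATF5 shares its locus with NUP62 and IL4I1 on the opposite strand. They held 424 and 9 counts against 4103 for ATF5, and the mean effect on NUP62 was 0.19 (SE 0.26).

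TRIB3 is a pseudokinase induced by ATF4 and the ATF4 partner DDIT3. Its level was 256, 288, 189 and 315 CPM with siGATA1-1 and 255, 208, 115 and 153 CPM with siGATA1-2. The controls had a lowest, median and highest level of 229, 375 and 492 CPM at 25 nM and of 145, 252 and 361 CPM at 6.25 nM. Both knockdown groups overlapped with their controls. The mean effect of -0.44 (SE 0.15, edgeR adjusted p = 0.0658) missed the threshold, with -0.46 (SE 0.20) for siGATA1-1 and -0.42 (SE 0.22) for siGATA1-2. It passed without siGATA1-2 replicate 1, siNC-1 replicate 6 or siNC-2 replicate 6 at 6.25 nM, or siNC-2 replicate 4 at 25 nM (adjusted p from 0.0301 to 0.0399).

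PPP1R15A (GADD34) recruits a phosphatase to eIF2alpha and so ends the response. Its levels were 327, 353, 472 and 208 CPM with siGATA1-1 and 246, 334, 573 and 329 CPM with siGATA1-2. They overlapped with the controls, and the mean effect was -0.32 (SE 0.13, edgeR adjusted p = 0.155), or -0.44 (adjusted p = 0.0349) without siGATA1-2 replicate 3. DDIT3 (CHOP), a factor linked to cell death under prolonged stress, was the member with the highest mean effect. It lay at 629, 515, 436 and 470 CPM with siGATA1-1 and at 463, 489, 552 and 420 CPM with siGATA1-2, and the mean effect of 0.15 (SE 0.11, edgeR adjusted p = 0.536) was not called. DDIT3 overlaps MARS and MBD6 on the opposite strand, and whether the counting used strand is not given, so their reads may be mixed. ATF4 mRNA had a mean effect of -0.09 (SE 0.12, 95% interval -0.34 to 0.15), which leaves room for a moderate shift in either direction. The C/EBP partners CEBPB and CEBPG were at -0.14 (SE 0.19) and -0.22 (SE 0.27). ATF3, a stress-induced repressor, was at -0.44 (SE 0.30), from 0 to 79 CPM with siGATA1-2 and 50 to 80 CPM with siGATA1-1. Its siGATA1-2 effect was -0.95 (SE 0.47, edgeR adjusted p = 0.307), and -2.11 (SE 0.60, adjusted p = 0.0409) without replicate 4, the library at 79 CPM.

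Neither tested stress effector was called. DDIT4 (REDD1) and SESN2 both restrain mTORC1 signaling. DDIT4 was at 1132, 1210, 1315 and 969 CPM with siGATA1-1 and 1089, 968, 1105 and 817 CPM with siGATA1-2, within or near the range of the controls, and its mean effect was -0.14 (SE 0.09, edgeR adjusted p = 0.436). SESN2 was at 230, 137, 153 and 149 CPM with siGATA1-1 and 158, 111, 115 and 153 CPM with siGATA1-2, with a mean effect of -0.28 (SE 0.17, edgeR adjusted p = 0.420). CHAC1, which was not tested, gave 22 to 56 CPM with siGATA1-1, 10 to 32 CPM with siGATA1-2 and 3.8 to 59 CPM over the controls.

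No synthesis enzyme was called, and 6 of the 7 had a mean effect below 0 (median -0.30). Their summed level was 1111 ± 128 CPM (SD, n = 4) with siGATA1-1 against 1211 ± 208 CPM (SD, n = 8), and 823 ± 98.8 CPM (SD, n = 4) with siGATA1-2 against 1017 ± 124 CPM (SD, n = 8). At 25 nM the control means differed, with 1304 CPM for siNC-1 and 1118 CPM for siNC-2, the latter close to siGATA1-1. At 6.25 nM they were 1012 CPM for siNC-1 and 1021 CPM for siNC-2. ASNS makes asparagine from aspartate and glutamine. It lay at 339, 356, 383 and 422 CPM with siGATA1-1, inside the range of 231 to 426 CPM of its controls. With siGATA1-2 it lay at 222, 184, 167 and 238 CPM, where the controls had a range of 207 to 434 CPM. The siGATA1-2 libraries thus sat at and below the low end of the control range. The effect was 0.08 (SE 0.17) for siGATA1-1 and -0.61 (SE 0.20, edgeR adjusted p = 0.0731) for siGATA1-2, and their difference of -0.69 (95% interval -1.21 to -0.17) had an unadjusted p of 0.00986 and an adjusted p of 0.886. The siGATA1-2 effect on ASNS passed without siNC-1 replicate 6 (-0.67, adjusted p = 0.0498) or siNC-2 replicate 7 (-0.67, adjusted p = 0.0421) at 6.25 nM.

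PHGDH, PSAT1 and PSPH carry out the successive steps of serine synthesis from a glycolytic intermediate. PSAT1 was at 48, 56, 29 and 101 CPM with siGATA1-1 and at 46, 15, 10 and 11 CPM with siGATA1-2, where the controls ran from 24 to 103 CPM. In the siGATA1-2 group 3 of 4 libraries lay below all 8 controls and 1 lay among them. The siGATA1-2 effect was -1.35 (SE 0.49, edgeR adjusted p = 0.119), and without that library, replicate 1, it was -2.17 (SE 0.62, adjusted p = 0.0356). PSPH was counted 0 to 3 times in each siGATA1-2 library, at 13.9, 4.8, 0 and 0 CPM, below all 8 control libraries at 6.25 nM, which ran from 18 to 54 CPM. Such an order was seen in 0.994% of all genes. The PSPH effect of -2.11 (SE 0.76, edgeR adjusted p = 0.117) therefore rests on a few counts per library. In the siGATA1-1 group PSPH ran from 39 to 71 CPM and its effect was 0.47 (SE 0.46). PHGDH, the entry step, had a mean effect of 0.01 (SE 0.16), with 125 to 312 CPM over the GATA1 siRNA libraries.

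The remaining enzymes move serine-derived carbon through folate in mitochondria. SHMT2 was at 259, 216, 88 and 199 CPM with siGATA1-1 and at 144, 184, 292 and 278 CPM with siGATA1-2, and its mean effect was -0.10 (SE 0.15). MTHFD2 had a mean effect of -0.30 (SE 0.15, edgeR adjusted p = 0.303). ALDH1L2 was at 20 to 24 CPM in the 4 siGATA1-1 libraries, below all 8 controls at 25 nM, which ran from 28 to 78 CPM. All 4 libraries lay below the 8 controls in 0.92% of all genes. ALDH1L2 passed the low-count filter only through control libraries. The filter thus favored this order, and that share is no measure for it. With few counts, the ALDH1L2 effect of -0.91 (SE 0.55) had an adjusted p of 0.870 (edgeR). ALDH1L2 overlaps C12orf45 on the opposite strand, which held 222 counts against its own 182, and their reads may be mixed.

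Aminoacyl-tRNA synthetases attach amino acids to their tRNAs. Of the 18 cytosolic members, 1 fell (LARS), none rose and 17 were not called, and 17 of the 18 mean effects were below 0, with a median of -0.23. Their summed level was 4006 ± 340 CPM (SD, n = 4) with siGATA1-1, 89.8% of the 4461 ± 383 CPM (SD, n = 8) of its controls, and the ranges overlapped. Those controls differed from each other, with means of 4713 CPM for siNC-1 and 4209 CPM for siNC-2, so the percentage depends on the control. With siGATA1-2 the sum was 3765 ± 132 CPM (SD, n = 4), 85.0% of the 4430 ± 175 CPM (SD, n = 8) of its controls. There the 4 knockdown libraries, from 3632 to 3910 CPM, did not overlap with the 8 controls, from 4179 to 4676 CPM. How often sums over 18 other genes separate in this way was not computed. The order is therefore a description and no result particular to the synthetases. The sum over the 8 regulators was 85.1% of its controls with siGATA1-1 and 82.0% with siGATA1-2. It overlapped with the controls at both doses (2134 to 2583 against 2350 to 3157 CPM, and 1805 to 2126 against 2044 to 2656 CPM). At 25 nM the control means of the regulator sum were 2899 CPM for siNC-1 and 2568 CPM for siNC-2, against 2327 CPM for siGATA1-1. ATF5, the regulator with the most counts, is part of that sum.

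LARS charges the leucine tRNA. Its level was 117, 126, 112 and 137 CPM with siGATA1-1. At that dose the controls gave 199, 149, 194 and 182 CPM for siNC-1 and 272, 160, 147 and 177 CPM for siNC-2. All 4 siGATA1-1 libraries lay below all 8 controls, an order that 2 of the 35 tested members (LARS and ALDH1L2) and 0.92% of all genes had. Of these members, ALDH1L2 had passed the low-count filter only through control libraries.

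With siGATA1-2, LARS was at 139, 150, 73 and 62 CPM. The controls at 6.25 nM spread widely, with 285, 127, 268 and 112 CPM for siNC-1 and 197, 171, 223 and 114 CPM for siNC-2. Here the groups overlapped, with 2 of the 4 siGATA1-2 libraries below every control. The mean effect on LARS was -0.64 (SE 0.18, edgeR adjusted p = 0.0246), made of -0.55 (SE 0.25, adjusted p = 0.650) for siGATA1-1 and -0.73 (SE 0.27, adjusted p = 0.137) for siGATA1-2. The LARS call was lost with siNC-2 alone as the control (-0.60, adjusted p = 0.121). It was also lost without siGATA1-2 replicate 3 (adjusted p = 0.0557) or 4 (0.103) and without siNC-1 replicate 5 (0.0549) or 7 (0.0547) at 6.25 nM.

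The other synthetases are described by their spread. CARS (cysteine) had a mean effect of -0.47 (SE 0.19, edgeR adjusted p = 0.155), with 105, 137, 59 and 125 CPM for siGATA1-1 and 79, 131, 156 and 79 CPM for siGATA1-2. GARS (glycine) had -0.35 (SE 0.14, adjusted p = 0.172), with 273, 252, 189 and 172 CPM for siGATA1-1 and 255, 194, 219 and 267 CPM for siGATA1-2. These ranges overlapped with the controls.

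HARS (histidine) had -0.66 (SE 0.31, edgeR adjusted p = 0.260), with 46, 36, 41 and 65 CPM for siGATA1-1 and 28, 39, 31 and 17 CPM for siGATA1-2, and its annotation overlaps that of HARS2. AARS (alanine) was at 230 to 431 CPM with siGATA1-1 and 241 to 437 CPM with siGATA1-2, and its mean effect was -0.23 (SE 0.12). WARS (tryptophan) was at 307 to 604 CPM and 198 to 422 CPM, with a mean effect of -0.14 (SE 0.12). RARS (arginine) was the synthetase above 0, at 0.04 (SE 0.20), and QARS (glutamine) was nearest to 0 from below, at -0.01 (SE 0.15). The 10 tested members whose promoter held the TGATGNAA match had a median mean effect of -0.25, and the 18 with an entry but no match had -0.20, with overlapping ranges.

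**Figure D3:**
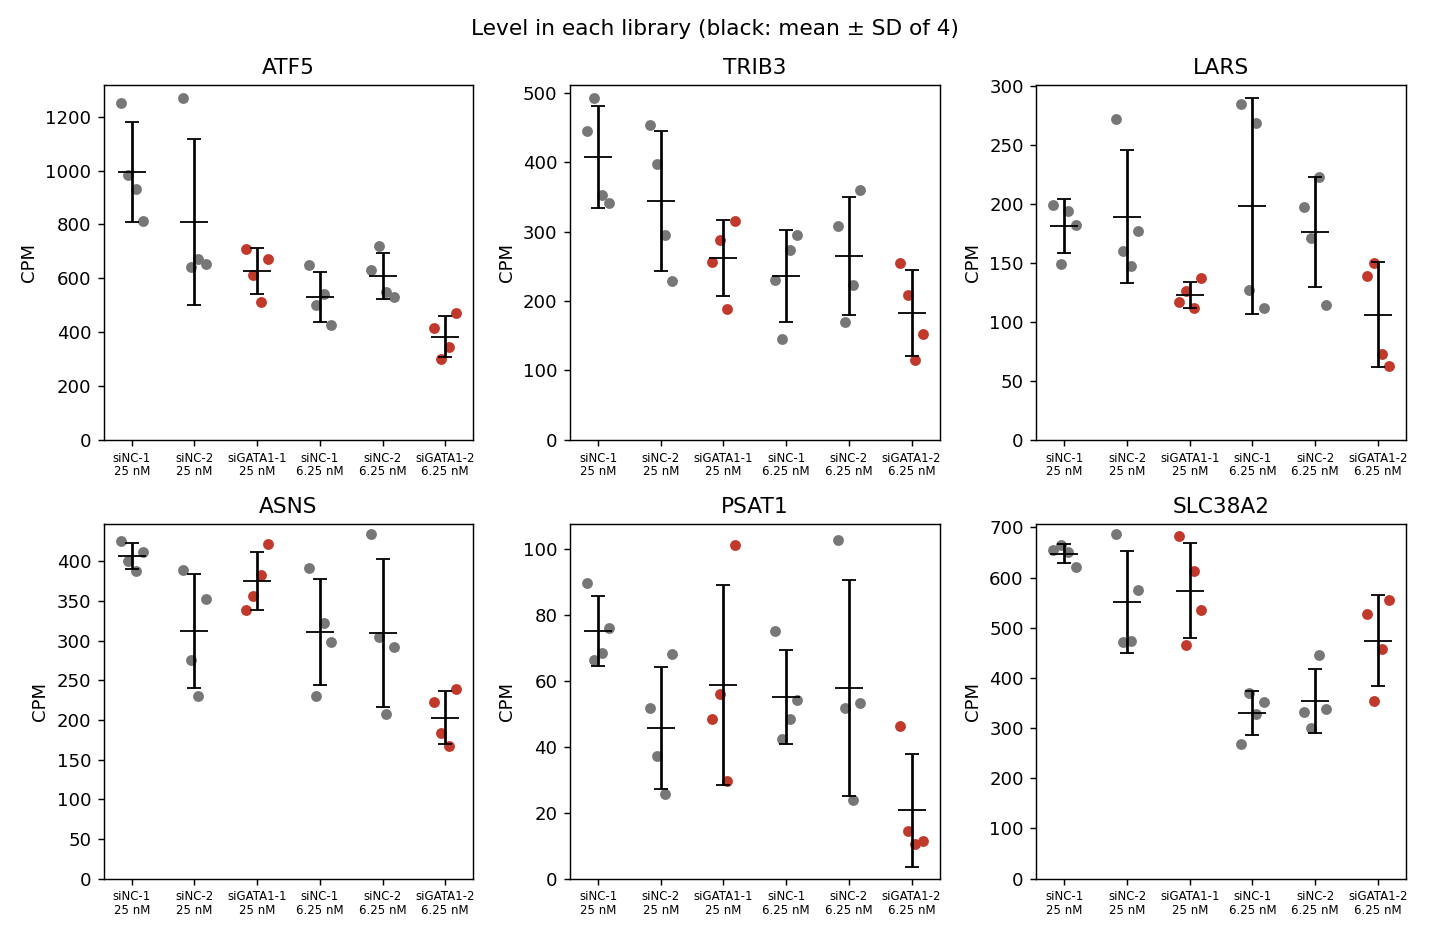
Level of ATF5, TRIB3, LARS, ASNS, PSAT1 and of the amino acid transporter gene SLC38A2 in each of the 24 libraries. The y axis is CPM from 0, red points are GATA1 siRNA libraries, grey points control libraries, and black marks the mean ± SD of 4; ATF5 and SLC38A2 are higher in the controls at 25 nM than in those at 6.25 nM.

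Taken separately, siGATA1-1 gave no called member among 35, where 0.727% of all genes were called and 0.341% fell, and 3 reached a lower level at an unadjusted p under 0.05, where 2.86% of all genes did. For siGATA1-1, 24 of the 35 effects were below 0, against 49.3% of all genes, and their median was -0.12. With siGATA1-2, 1 member (ATF5) fell, where 3.03% of all genes were called, 1.28% as lower and 1.75% as higher. In that comparison 10 members reached a lower level at an unadjusted p under 0.05 against 7.78% of all genes, 29 of 35 were below 0 against 50.9% of all genes, and the median was -0.28. No member lay above all 8 controls in all 4 libraries of a GATA1 siRNA, an order found for 0.89% of all genes with siGATA1-1 and 1.29% with siGATA1-2.

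The difference between the siRNA effects was called for 0 of the 35 members and for 0 of all genes (edgeR). At an unadjusted p under 0.05 there were 3 members, ASNS, PSAT1 and PSPH, and 4.94% of all genes. Those 3 were each lower with siGATA1-2 than with siGATA1-1 relative to their own controls. The difference was below 0 for 22 of the 35 members and for 50.6% of all genes, with a median of -0.15 over the members. The siGATA1-2 group had the lowest mean level of the 6 groups for 16 of the 35 members, against 24% of all genes, and siGATA1-1 for 8, against 14.7%. The siNC-1 group at 25 nM had the highest for 16, against 9.94% of all genes.

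**Figure D4:**
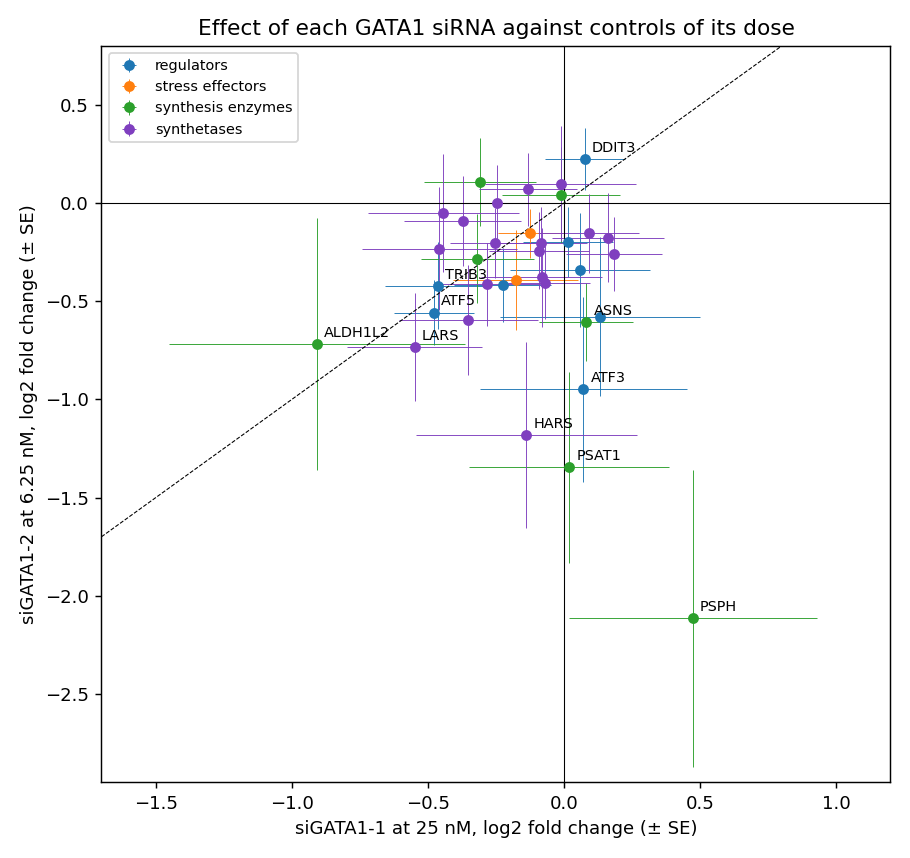
Effect of siGATA1-2 at 6.25 nM (y axis) against that of siGATA1-1 at 25 nM (x axis) for the 35 tested members, as log2 fold changes with their SE. Colors mark the 4 roles and the dashed line equal effects; PSPH, PSAT1 and ASNS lie below the line, and ATF5 lies near it.

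The control libraries allowed the dose to be compared without a GATA1 siRNA. In the 8 control libraries at 25 nM, ATF5 was 1.55-fold higher than in the 8 at 6.25 nM (log2 fold change 0.63, SE 0.12, 95% interval 0.39 to 0.87, edgeR adjusted p = 4.88e-04). It was the single member of 35 that was called, where 1.41% of all genes were called, 0.683% as higher and 0.727% as lower. No member was separated between the doses, as 0.163% of all genes were with 25 nM higher and 0.312% with 25 nM lower. The CPM of the control groups overlapped, from 643 to 1269 at 25 nM and from 428 to 718 at 6.25 nM. The difference was 0.91 (SE 0.17, adjusted p = 6.07e-04) in the siNC-1 libraries and 0.35 (SE 0.18, adjusted p = 0.606) in the siNC-2 libraries. Without siNC-2 replicate 1 at 25 nM, the highest of the 24 libraries for ATF5, the pooled difference was 0.52 (adjusted p = 0.00353). The summed erythroid markers moved with the dose as well, without overlap (19573 to 24975 CPM at 25 nM and 25723 to 31069 CPM at 6.25 nM), and 2 of the 10 fell at 25 nM. Their part in the ATF5 difference was not tested, and how often sums over other genes separate was not computed. Dose and anything else that differed between these libraries cannot be told apart, since the replicate numbers of the doses do not overlap. The knockdown comparisons use the same control libraries, so their values are set side by side only. ATF5 with siGATA1-1 at 25 nM (513 to 708 CPM) lay in the same range as the controls at 6.25 nM.

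Besides ATF5, a higher level at 25 nM with an unadjusted p under 0.05 was found for TRIB3 (0.53, SE 0.16, edgeR adjusted p = 0.0836, or 0.0325 and 0.0398 without siNC-2 replicate 4 at 25 nM and replicate 8 at 6.25 nM), PHGDH (0.47, SE 0.19, adjusted p = 0.220) and DDIT3 (0.26, SE 0.13, adjusted p = 0.363). With ATF5 these were 4 of the 35 members, against 6.17% of all genes. Below 0 were 15 of the 35 members and 51.3% of all genes. The 7 synthesis enzymes had differences from 0.0006, or about 0, to 0.59 (median 0.27), 1 of them with an unadjusted p under 0.05. The synthetases were spread on both sides (8 of 18 above 0, median -0.03). For siNC-1 against siNC-2 no member and no gene was called (edgeR), and SESN2 (0.41, SE 0.19) was the one member with an unadjusted p under 0.05, where 2.55% of all genes had one. In that comparison 11 of 35 members were below 0 against 51.3% of all genes, and the median was 0.08.

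**Figure D5:**
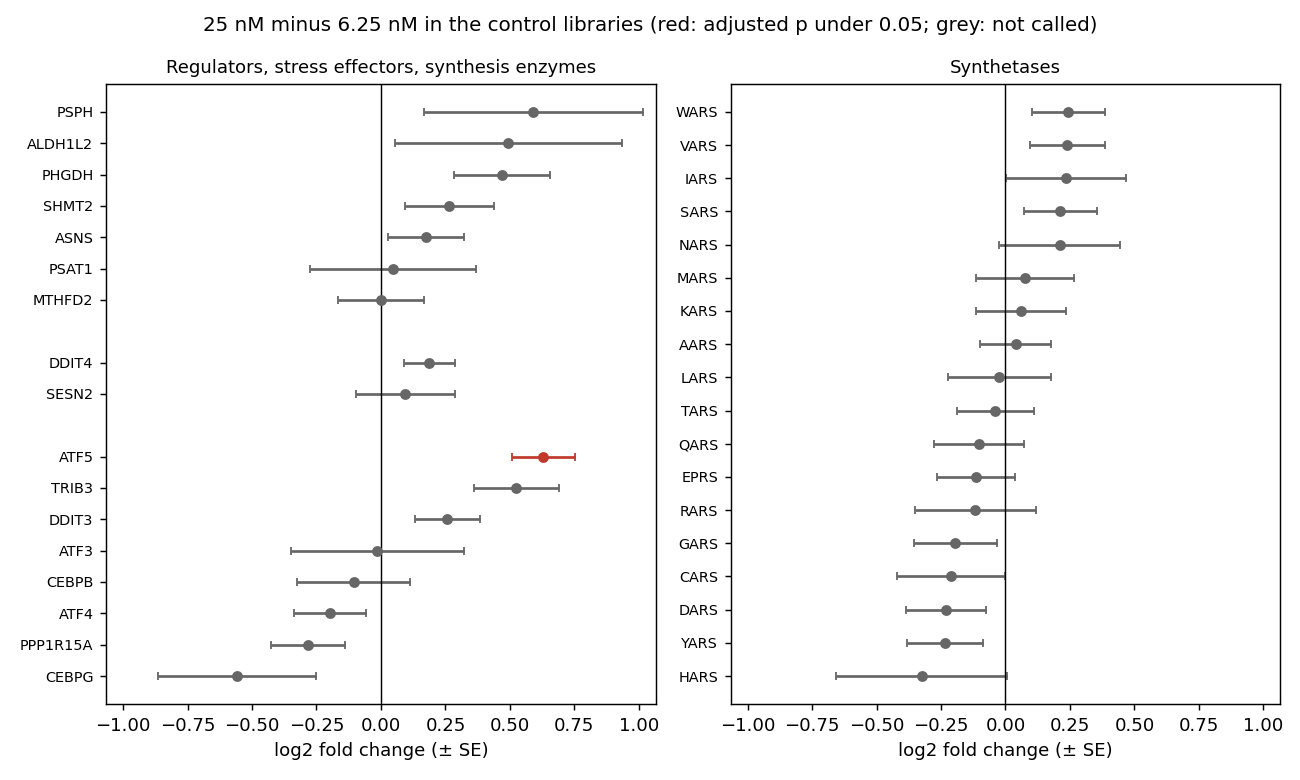
Difference between the 8 control libraries at 25 nM and the 8 at 6.25 nM for each tested member, by role. Points are log2 fold changes and bars their SE. ATF5, at 0.63, is the red point that passed an adjusted p under 0.05. The 7 synthesis enzymes lie between about 0 and 0.59.

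Genes around the set were read from related lists. Of 24 symbols listed as upstream of ATF4 (kinases, eIF2 subunits, phosphatases), some of them older and newer names of 1 gene, 22 were in the count table. Of these, 18 were tested and 0 were called in the mean effect, with 11 below 0 and a median of -0.05. EIF2AK1, which encodes HRI, was at 248 to 288 CPM with siGATA1-1 and 227 to 329 CPM with siGATA1-2 against 194 to 364 CPM over the controls. Its mean effect was -0.02 (SE 0.13, 95% interval -0.28 to 0.24). The other eIF2alpha kinase genes, EIF2AK2, EIF2AK3 and EIF2AK4, did not pass the filter. Of 27 further ATF4 targets, 20 were tested and 0 were called, with 16 below 0 and a median of -0.17.

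No gene was called in the mean effect among 11 tested mitochondrial synthetases (7 below 0, median -0.13), 5 synthetase partners (3 below 0, median -0.26) and 4 further serine and folate genes (4 below 0). The same held for 14 tested genes of the other unfolded protein response arms (9 below 0, median -0.05) and 9 immediate early and heat shock genes (5 below 0, median -0.20). The partner list includes FARSA and FARSB, the subunits of the cytosolic phenylalanine synthetase. At an unadjusted p under 0.05 the counts of lower and higher genes were 3 and 1 upstream of ATF4, 3 and 1 among the further targets, 1 and 0 among the partners, 0 and 0 among the mitochondrial synthetases, 2 and 0 among the serine and folate genes, 2 and 0 in the unfolded protein arms and 3 and 1 among the heat shock and early genes. In sum these were 14 lower and 3 higher of 81 tested, where 8.4% of all genes were lower and 8.24% higher.

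Between the control doses, 3 of the 81 tested genes of these lists were called (3.7%), against 1.41% of all genes. SLC38A2, which encodes an amino acid transporter induced by ATF4, rose by a log2 fold change of 0.80 (SE 0.13, edgeR adjusted p = 6.47e-06) at 25 nM. It was at 472 to 686 CPM in the controls at 25 nM and at 268 to 446 CPM in those at 6.25 nM, without overlap, an order that 0.163% of all genes had. With siGATA1-1 SLC38A2 was at 683, 465, 613 and 535 CPM, and with siGATA1-2 it was at 528, 353, 459 and 556 CPM. The siGATA1-2 effect on it was 0.48 (SE 0.16, edgeR adjusted p = 0.0811) and the siGATA1-1 effect -0.05 (SE 0.15). PPP1CB, a catalytic phosphatase subunit, rose by 0.47 (SE 0.13, adjusted p = 0.0457). HSPA1A, an inducible HSP70 chaperone gene, fell by 0.45 (SE 0.11, adjusted p = 0.0185).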

How the data were processed

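Libraries were made by the BRB-seq 3' protocol, per the labels' protocols, from 10000 lysed K562 cells. The submitters' processing notes name STAR 2.5.6b and the build hg19. Neither the annotation and counting program nor strand use and molecular identifier handling is stated in the labels. The authors deposited raw counts per gene symbol for 24 libraries, without normalization, and the values were whole numbers. Chi-square per gene between replicate libraries was 1.88 to 3.77 (36 pairs; sampling noise alone gives about 1), and all were used as replicates. The labels do not say whether they came from separate cultures, so p-values measure the spread between libraries, which may be technical.

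All 24 libraries were fitted together, 1 mean per group, with edgeR 4.0.16 in R 4.3.3 (TMM, filterByExpr with a minimum count of 10, robust quasi-likelihood F test). This left 6738 genes with 93.7% of the counts. The SE is the log2 fold change divided by the square root of F. The mean effect is the average of both siRNA effects, each against the mean of siNC-1 and siNC-2 at its dose. The fit was tested on simulated data for the mean effect. It recovered 73 of 96 genes with a simulated log2 fold change of 1 in size and 93 of 95 with 2. Smaller changes, such as the mean effects of the members, were not simulated, so a member not called may still have changed. The members and lists were chosen with earlier results of these data known. Members were named if called in any comparison, if their unadjusted p in the mean effect was under 0.05, or if they had 1 of the 2 highest mean counts of their role. Others were named after their values were seen. Promoter letters are from RefSeq (GRCh38.p14) and were linked by symbol. Alternatives included RLE scaling, library totals, other filters, other control sets, DESeq2 1.42.0 and leaving out each library.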

Additional observations from a re-analysis of the deposited data

Results flagged for a closer look

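Within the groups of 4, the gap of the highest or lowest library to its neighbor was compared with Dixon's 95% critical value for the 15 named members, in 90 groups. It was exceeded in 2 of the 90, and chance gives about 1 in 20. The ATF5 level of siNC-2 replicate 1 at 25 nM was 1269 CPM, far above the next library of its group at 672 CPM. That library had the lowest total of all, 88290 counts. Without it, the mean effect on ATF5 was -0.46 and the dose difference in the controls 0.52. The PSAT1 level of siGATA1-2 replicate 1 was 46.3 CPM, against 14.5 CPM in the next library of its group. Without it, the mean effect on PSAT1 was -1.08 (edgeR adjusted p = 0.0805).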

How the results depend on the processing

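In the mean effect 2 members were called, 1 when siNC-2 was the only control, and 1 to 3 when each library was left out in turn. For siGATA1-1 the count was 0, and 0 in every fit without 1 library, but 1 with siNC-1 alone (ATF5, -0.66, edgeR adjusted p = 0.0394). For siGATA1-2 it was 1, 0 with RLE scaling, with siNC-1 alone, with the 12 libraries of the dose only and with DESeq2, 4 against all 16 controls (ASNS, ATF5, PSPH, TRIB3), and 0 to 2 without 1 library. For the difference between siRNAs it was 0, and 1 against all 16 controls (PSPH, -3.18, adjusted p = 0.0404). For the control doses it was 1, 2 with DESeq2 (ATF5, TRIB3), 0 in the siNC-2 libraries only, a setting chosen after seeing the data, and 1 to 2 without 1 library. None of the 17 effects of single members that were recomputed changed sign. They cover the named members' mean effects and the called ATF5 comparisons, not effects near 0 such as those of PHGDH, QARS, RARS and EIF2AK1. Without 1 library, the median mean effect of the members ran from -0.26 to -0.20. The summed synthetase level ran from 3858 to 4131 CPM for siGATA1-1, 4413 to 4531 CPM for controls at 25 nM, 3717 to 3810 CPM for siGATA1-2 and 4389 to 4472 CPM for controls at 6.25 nM.

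Libraries with the same replicate number at 25 nM had a median residual correlation of -0.004, with 2 of 12 pairs over 0.1. Between siNC-1 and siNC-2 over both doses the median was 0.07, with 4 of 8 pairs over 0.1, and the lowest was -0.04. Since not every pair was over 0.1, the numbers were not taken as pairs. With the replicate block, 1 member (ATF5, -0.47, SE 0.13, adjusted p = 0.0431) was called for siGATA1-1. siGATA1-2 and its controls share no numbers, so no such fit was possible for it or for the mean effect. Low counts limit PSPH, ALDH1L2, HARS, PSAT1 and ATF3.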
